A study of Mus musculus with 18 samples.

Results

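The genes examined are 10 neighbours of Rps6kb1, the gene for the ribosomal S6 kinase S6K1, on mouse chromosome 11: Dhx40, 4632419I22Rik, Acaca, Tbx2, Cuedc1, Cltc, Ptrh2, Vmp1, Tubd1 and Rnft1. They form a given list whose members were chosen by their measured differences between knockout and wild-type libraries in these same data. Those differences are therefore given as values, without a test. All 10 were found among the 55401 gene identifiers of the count table, and all 10 passed the filter on low counts in both series, with at least 33 reads in every library.

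RNA was sequenced from 18 libraries of mouse embryonic fibroblasts (MEFs), primary cells grown from C57BL/6 mid-gestation embryos after the head and viscera were removed. The S6K1 series holds 3 groups of 3 libraries: wild-type cells carrying an empty retrovirus (WT EV), wild-type cells carrying a retrovirus that expresses constitutively active HRAS (WT RAS), and S6K1 knockout cells with the same RAS virus (KO RAS). The other series, named S6K1/S6K2, has its own WT EV and WT RAS groups and a group of S6K1/S6K2 double knockouts with RAS (DKO RAS), which are targeted at Rps6kb2, the gene for S6K2, as well, again with 3 libraries each. WT and KO cells of the S6K1 series were littermates, whereas the WT cells of the S6K1/S6K2 series came from WT mothers at earlier stages of breeding, so the breeding history and the genotype cannot be told apart there. Knockout cells with the empty vector were not analysed here, so a difference between KO or DKO RAS and WT EV joins RAS and genotype.

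Library totals ran from 8319445 to 14402442 reads in genes. All 10 fibroblast markers were above a mean of 10 CPM (counts per 1000000 reads in genes, after TMM scaling within each series) in each of the 6 groups, with a summed level of 13915 to 49253 CPM. The summed level of 11 macrophage markers of the S6K1 series ran from 575 to 2899 CPM for WT EV, 657 to 3398 CPM for WT RAS and 227 to 799 CPM for KO RAS, and that of the S6K1/S6K2 series from 148 to 1233, 165 to 935 and 70.9 to 215 CPM for WT EV, WT RAS and DKO RAS. The sum thus reached lower in the knockout libraries while the groups overlapped. None of these markers was at 0 throughout a group, and Lyz2 was the highest of them in all 6 groups. Their part in the results on the 10 genes was not tested. In bulk RNA, fewer cells of a type and less RNA per cell cannot be told apart. The other lists, for endothelial, muscle, epithelial and neural cells, summed to at most 15.0, 232, 167 and 503 CPM in any library.

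S6K1 acts downstream of mTORC1, the growth-control kinase complex, and phosphorylates ribosomal protein S6 and other regulators of protein synthesis. A strong RAS signal drives primary fibroblasts into senescence, a stable growth arrest in which cells secrete inflammatory factors. Genes that lie beside a targeted allele are passed on together with it through crosses, and genes whose starts face each other can share a promoter, the stretch of DNA from which transcription begins.

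The 10 genes belong to unrelated families. Dhx40 encodes a putative RNA helicase of the DEAH-box family, and 4632419I22Rik is a long non-coding RNA that starts head to head with Brip1, a helicase gene of DNA repair. Acaca encodes acetyl-CoA carboxylase alpha, which makes the malonyl-CoA used in fatty acid synthesis. Tbx2 encodes a T-box transcription factor known to repress cell cycle inhibitors and to delay senescence, and Cuedc1 encodes a protein with a ubiquitin-binding CUE domain. Rnft1 encodes a RING finger protein of the endoplasmic reticulum, and Tubd1 encodes delta-tubulin of the centriole. Vmp1 encodes a membrane protein needed to form autophagosomes, Ptrh2 a mitochondrial peptidyl-tRNA hydrolase, and Cltc the clathrin heavy chain of coated vesicles.

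In the NCBIM37 build, Rps6kb1 (ENSMUSG00000020516.15) lies on the minus strand of chromosome 11 from 86312373 to 86358307. The end of Rnft1 (86298159 to 86312527, plus strand) overlaps the end of Rps6kb1 by 155 bases, and the start of Tubd1 (86358493 to 86380862, plus strand) is separated from that of Rps6kb1 by 186 bases. Towards higher coordinates follow Vmp1 at 39.1 kb from Rps6kb1 (86397367 to 86497338, minus strand), Ptrh2 at 139 kb (86497487 to 86505959, plus strand), Cltc at 149.5 kb (86507853 to 86571067, minus strand), Dhx40 at 224 kb (86582348 to 86621198, minus strand) and Cuedc1 at 1554 kb (87912648 to 88007642, plus strand). Towards lower coordinates lie 4632419I22Rik at 194 kb (86014872 to 86117945, plus strand), Tbx2 at 657 kb (85646053 to 85655450, plus strand) and Acaca at 2097 kb (83943174 to 84215153, plus strand). Thus 7 of the 10 lie within the 224 kb up to Dhx40 of the targeted gene or overlap it, and Acaca is the farthest.

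3 promoter windows are shown, because they hold the starts of the gene with the largest fall in both series, of the long non-coding RNA and of the targeted gene itself. Each runs from 250 bases before to 50 bases after a RefSeq gene start in the GRCm38.p6 build, a different build from the positions above. In the Dhx40 window (chr11:86807611-86807910, minus strand) the capitals mark an E-box (CACGTG) and a GC box (GGGCGG). In the other windows the capitals mark the bases from the start of the opposite-strand neighbour to the start of the gene named, which are 168 bases from 4632419I22Rik to Brip1 (chr11:86201144-86201443, minus strand) and 185 bases from Tubd1 to Rps6kb1 (chr11:86544758-86545057, minus strand).
Dhx40: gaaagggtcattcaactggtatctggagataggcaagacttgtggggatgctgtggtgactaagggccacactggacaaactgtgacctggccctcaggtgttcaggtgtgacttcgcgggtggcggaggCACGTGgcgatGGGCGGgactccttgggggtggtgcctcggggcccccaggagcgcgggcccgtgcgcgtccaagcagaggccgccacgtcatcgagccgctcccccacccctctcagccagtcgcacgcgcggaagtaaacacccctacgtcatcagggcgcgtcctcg
Brip1 and 4632419I22Rik: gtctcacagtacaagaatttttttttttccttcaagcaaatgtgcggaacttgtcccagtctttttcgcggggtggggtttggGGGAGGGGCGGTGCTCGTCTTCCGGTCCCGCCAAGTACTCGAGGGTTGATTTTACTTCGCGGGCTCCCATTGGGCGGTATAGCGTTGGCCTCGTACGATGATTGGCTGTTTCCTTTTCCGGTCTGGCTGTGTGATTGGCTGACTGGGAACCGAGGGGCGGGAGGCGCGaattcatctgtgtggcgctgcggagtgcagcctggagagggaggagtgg
Rps6kb1 and Tubd1: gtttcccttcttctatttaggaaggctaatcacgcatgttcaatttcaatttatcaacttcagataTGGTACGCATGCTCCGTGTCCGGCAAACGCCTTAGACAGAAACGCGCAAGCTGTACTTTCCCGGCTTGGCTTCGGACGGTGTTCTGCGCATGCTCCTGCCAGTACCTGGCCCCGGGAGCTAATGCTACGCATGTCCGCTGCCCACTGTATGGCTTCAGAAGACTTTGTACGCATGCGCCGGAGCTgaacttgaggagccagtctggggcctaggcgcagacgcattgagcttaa
The window between Brip1 and 4632419I22Rik held 3 CCAAT boxes, 3 GC boxes and 1 match to the ETS letters CCGGAAG, read on both strands, and 1 GC box overlapped a CCAAT box. The window between Rps6kb1 and Tubd1 held none of the 8 motifs searched. E-box letters were in 7.15% of the 32851 RefSeq promoter windows, GC box letters in 35.7%, CCAAT letters in 37.4% and the ETS letters in 8.86%. The AP-1 letters TGANTCA, bound by factors downstream of RAS, were in none of the 10 windows that the table holds for 7 of the 10 genes and in 7.81% of all windows. The same 10 windows held no TATA box (TATAAA, 13.6% of all windows), no CRE (TGACGTCA, 1.79%) and no NRF1 motif (4.60%). These matches describe letters and were not measured as binding sites.

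The targeted genes were read first. Rps6kb1 stood at 61.6, 70.9 and 74.6 CPM for WT RAS of the S6K1 series against 23.6, 31.3 and 37.0 CPM for KO RAS, and at 75.5, 83.7 and 82.7 CPM for WT RAS of the S6K1/S6K2 series against 34.5, 39.7 and 38.2 CPM for DKO RAS. The groups did not overlap in either series, and between 259 and 444 reads per KO library were still counted in the gene. Rps6kb2 stood at 24.5, 24.1 and 28.9 CPM for WT RAS against 2.68, 3.04 and 2.80 CPM for DKO RAS, and at 22.2 to 23.7 CPM for WT RAS against 19.8 to 24.1 CPM for KO RAS. The lower groups were those the labels give as knockouts of the gene.

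Of the 10 neighbours, 3 were lower in every KO and DKO RAS library than in every WT RAS library of the same series, namely Dhx40, 4632419I22Rik and Acaca. A further 3, Tbx2, Cuedc1 and Rnft1, were higher in every KO and DKO RAS library. The other 4, Tubd1, Vmp1, Ptrh2 and Cltc, overlapped with WT RAS in both series. Over all genes tested in KO RAS against WT RAS, 4.17% were lower and 3.85% higher without overlap, and in DKO RAS against WT RAS 3.05% were lower and 3.02% higher. In both series and the same direction, 85 of 13550 genes (0.627%) did not overlap, 0.406% lower and 0.221% higher. The 6 of 10 neighbours are not read against that share, because the genes were chosen on it. For the same reason nothing is read from the count past an adjusted p of 0.05 in edgeR: against WT RAS it was 1 of 10 in KO RAS (Dhx40; 0.00712% of all genes) and 0 of 10 in DKO RAS (0.0216%; 5 of 10 had an unadjusted p under 0.05, and 2 passed in DESeq2), and against WT EV 3 of 10 (18.1%) and 5 of 10 (25.7%). In KO RAS against WT RAS, Dhx40 was the only gene of all tested that passed. The targeted gene Rps6kb1 did not pass there (edgeR adjusted p = 0.234), although its groups did not overlap. With the replicate number as a block, the counts of listed genes in KO RAS were 4 of 10 against WT RAS (4.15%) and 6 of 10 against WT EV (41.1%).

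**Figure D1:**
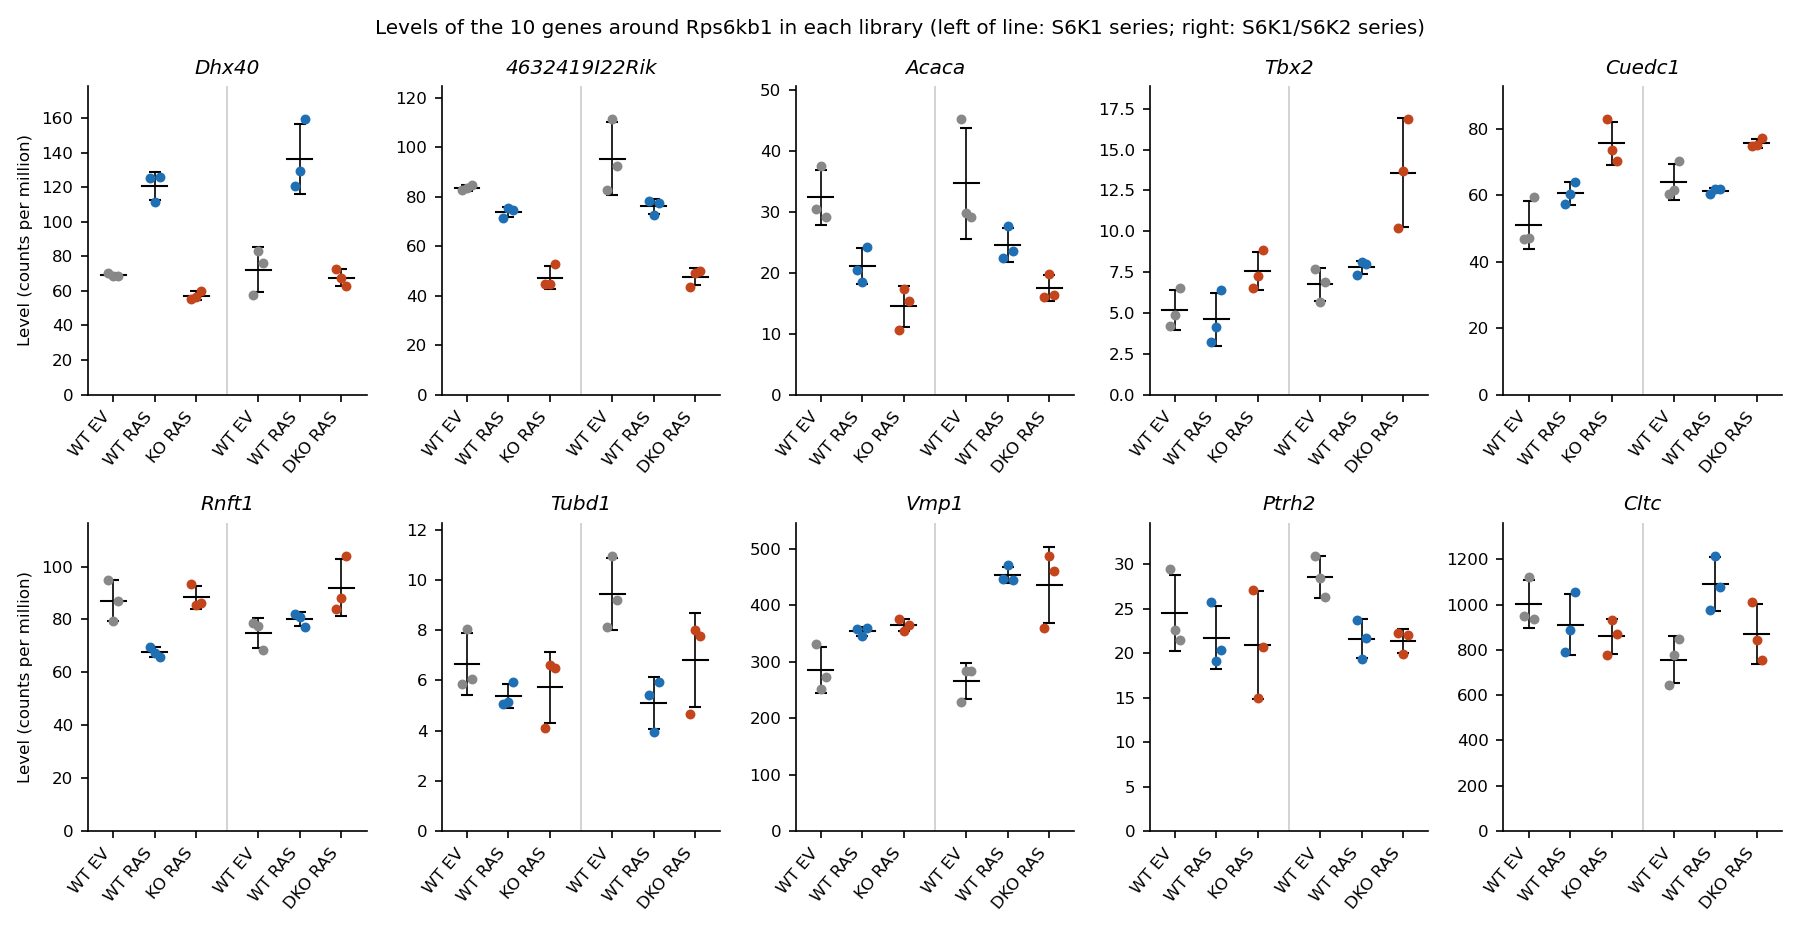
Levels of the 10 genes in CPM (vertical axes, starting at 0) in each of the 18 libraries, with the mean and SD of each group of 3 libraries in black. Dhx40 ran from 112 to 159 CPM for WT RAS and from 55.0 to 72.5 CPM for KO and DKO RAS, and 4632419I22Rik and Acaca were lowest in KO and DKO RAS.

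Dhx40 had the largest fall of the 10 in both series. Its levels in the S6K1 series were 70.2, 68.5 and 68.7 CPM for WT EV, 126, 112 and 126 CPM for WT RAS, and 55.0, 56.2 and 60.0 CPM for KO RAS. The S6K1/S6K2 series had 57.9, 82.8 and 76.0 CPM for WT EV, 121, 129 and 159 CPM for WT RAS, and 72.5, 67.2 and 62.8 CPM for DKO RAS. RAS libraries of WT cells were thus the high ones in each series, and KO RAS and DKO RAS stood near WT EV. The change from WT RAS was -52.8% in KO RAS (log2 fold change -1.08 ± 0.10, SE) and -50.6% in DKO RAS (-1.02 ± 0.16). Against WT EV, KO RAS was lower by a smaller amount, with no overlap (-0.28 ± 0.10), whereas DKO RAS overlapped WT EV (-0.10 ± 0.16).

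4632419I22Rik (named Brip1os in RefSeq) was at 82.5, 83.5 and 84.8 CPM for WT EV, 71.5, 75.3 and 74.5 CPM for WT RAS and 44.7, 44.6 and 52.7 CPM for KO RAS. The S6K1/S6K2 series gave 82.7, 111 and 92.2 CPM for WT EV, 78.4, 72.5 and 77.4 CPM for WT RAS and 43.6, 49.3 and 49.8 CPM for DKO RAS. In each series the 3 knockout libraries were below all 6 WT libraries. Against WT RAS the log2 fold change was -0.64 ± 0.10 in KO RAS and -0.68 ± 0.13 in DKO RAS, and against WT EV -0.82 ± 0.10 and -1.004 ± 0.13. This RNA was therefore lower than in WT cells with or without RAS in both series, as Dhx40 was in the S6K1 series.

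4632419I22Rik overlaps Ints2 by 46895 bases and Med13 by 37411 bases on the opposite strand, and whether the reads were counted by strand is not stated in the sources used here. Ints2, a subunit gene of the Integrator complex, differed from WT RAS by 0.08 ± 0.20 on the log2 scale in KO RAS and by -0.09 ± 0.20 in DKO RAS, and Med13, a Mediator subunit gene, by 0.09 ± 0.23 and -0.06 ± 0.16. Both overlapped with WT RAS. Brip1, which starts in the window shown above, was at 5.29, 5.30 and 3.37 CPM for WT RAS and 2.46, 2.76 and 3.67 CPM for KO RAS, with overlap, and at 5.62, 2.74 and 2.32 CPM against 2.48, 3.04 and 3.79 CPM for DKO RAS.

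Acaca, the gene of fatty acid synthesis, was at 30.4, 37.6 and 29.2 CPM for WT EV, 20.4, 18.5 and 24.3 CPM for WT RAS and 10.6, 17.3 and 15.4 CPM for KO RAS. The S6K1/S6K2 series gave 45.2, 29.8 and 29.1 CPM for WT EV, 22.4, 27.7 and 23.6 CPM for WT RAS and 16.0, 19.9 and 16.4 CPM for DKO RAS. The levels stepped down from WT EV to WT RAS to the knockouts without overlap in both series, though the gap between the closest WT RAS and KO RAS libraries, 18.5 and 17.3 CPM, was small beside the spread within each group. The log2 fold change was -0.54 ± 0.20 in KO RAS and -0.50 ± 0.20 in DKO RAS against WT RAS, and -1.16 ± 0.20 and -0.99 ± 0.20 against WT EV.

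Tbx2, the T-box gene, had the lowest mean of the 10 per kb of exon in WT RAS and the largest rise. Its levels were 4.18, 4.84 and 6.50 CPM for WT EV, 3.24, 4.13 and 6.43 CPM for WT RAS and 6.55, 7.28 and 8.83 CPM for KO RAS. The S6K1/S6K2 series had 7.68, 5.66 and 6.91 CPM for WT EV, 7.35, 8.10 and 7.97 CPM for WT RAS and 10.2, 13.7 and 16.9 CPM for DKO RAS. KO RAS exceeded WT RAS 1.64-fold (log2 fold change 0.71 ± 0.29) and DKO RAS exceeded it 1.74-fold (0.80 ± 0.23), with the lowest KO RAS library, 6.55 CPM, close to the highest WT RAS library, 6.43 CPM. Against WT EV the log2 fold change was 0.55 ± 0.29 in KO RAS and 1.01 ± 0.23 in DKO RAS, without overlap in either series. That margin was narrow in the S6K1 series as well, between 6.50 CPM for WT EV and 6.55 CPM for KO RAS.

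Cuedc1, the CUE domain gene, was higher by about the same amount in both series. It was at 57.3, 60.5 and 64.2 CPM for WT RAS and 83.0, 73.6 and 70.5 CPM for KO RAS, and at 60.5, 61.9 and 62.0 CPM for WT RAS and 74.8, 75.1 and 77.3 CPM for DKO RAS. The WT EV libraries were at 46.8, 47.1 and 59.5 CPM and at 60.4, 61.6 and 70.3 CPM, also below every KO or DKO RAS library of their series. The difference from WT RAS was 0.32 ± 0.13 on the log2 scale in KO RAS and 0.30 ± 0.10 in DKO RAS, a rise of 24.8% and 23.2%.

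Rnft1, the RING finger gene, was at 69.7, 67.4 and 66.0 CPM for WT RAS, 93.3, 85.4 and 86.3 CPM for KO RAS and 94.7, 79.5 and 87.1 CPM for WT EV. KO RAS was thus above WT RAS (0.38 ± 0.10 on the log2 scale) and overlapped WT EV (0.02 ± 0.10). The other series had 78.8, 77.4 and 68.5 CPM for WT EV, 82.2, 80.9 and 77.3 CPM for WT RAS and 83.9, 88.0 and 104 CPM for DKO RAS, a difference of 0.20 ± 0.12 from WT RAS that rested mainly on the library at 104 CPM. Rnft1 and Rps6kb1 share 155 bases, in which reads cannot be assigned to either gene without the strand.

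The 4 genes between Rps6kb1 and Dhx40 overlapped WT RAS in both series, unlike these neighbours on either side. Tubd1, which shares its promoter window with Rps6kb1, was at 5.04, 5.14 and 5.94 CPM for WT RAS and 4.09, 6.59 and 6.50 CPM for KO RAS, and at 5.40, 3.93 and 5.93 CPM for WT RAS and 4.66, 8.01 and 7.76 CPM for DKO RAS. Its log2 differences of 0.09 ± 0.24 and 0.42 ± 0.28 were within the overlap of the groups, with few reads in the gene, and differed in sign from those of Rps6kb1, -1.17 ± 0.17 and -1.11 ± 0.11.

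Vmp1 was at 345 to 359 CPM for WT RAS and 354 to 376 CPM for KO RAS, and at 444 to 470.2 CPM for WT RAS and 359 to 488 CPM for DKO RAS, which gave 0.04 ± 0.12 and -0.06 ± 0.15 on the log2 scale. Ptrh2, whose start is 149 bases from that of Vmp1, was at 19.2 to 25.8 CPM for WT RAS and 14.9 to 27.1 CPM for KO RAS (-0.06 ± 0.23), and at 19.4 to 23.8 CPM for WT RAS and 19.9 to 22.3 CPM for DKO RAS (-0.02 ± 0.13). Cltc was at 791, 889.5 and 1055 CPM for WT RAS and 779, 930.2 and 868 CPM for KO RAS (-0.09 ± 0.14). In DKO RAS it was at 1013, 842 and 756 CPM against 976, 1216 and 1079 CPM for WT RAS (-0.33 ± 0.17), with 2 of the 3 DKO RAS libraries below every WT RAS library. Cltc lies 11281 bases from Dhx40 on the same strand, so the separated levels of Dhx40 stood beside overlapping levels of Cltc.

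The span of Vmp1 also holds the hairpin of miR-21, a microRNA known for its high level in many tumours. Its mature form mmu-miR-21a-5p (RefSeq, GRCm38.p6, chr11:86584120-86584141, minus strand) is shown with the seed, bases 2 to 8, in capitals.
mmu-miR-21a-5p: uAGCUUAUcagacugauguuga
The identifier of this hairpin had 0 reads in all 18 libraries, so the level of the microRNA was not measured here. The library method selects messenger RNA, and reads in Vmp1 say nothing of the processed microRNA.

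**Figure D2:**
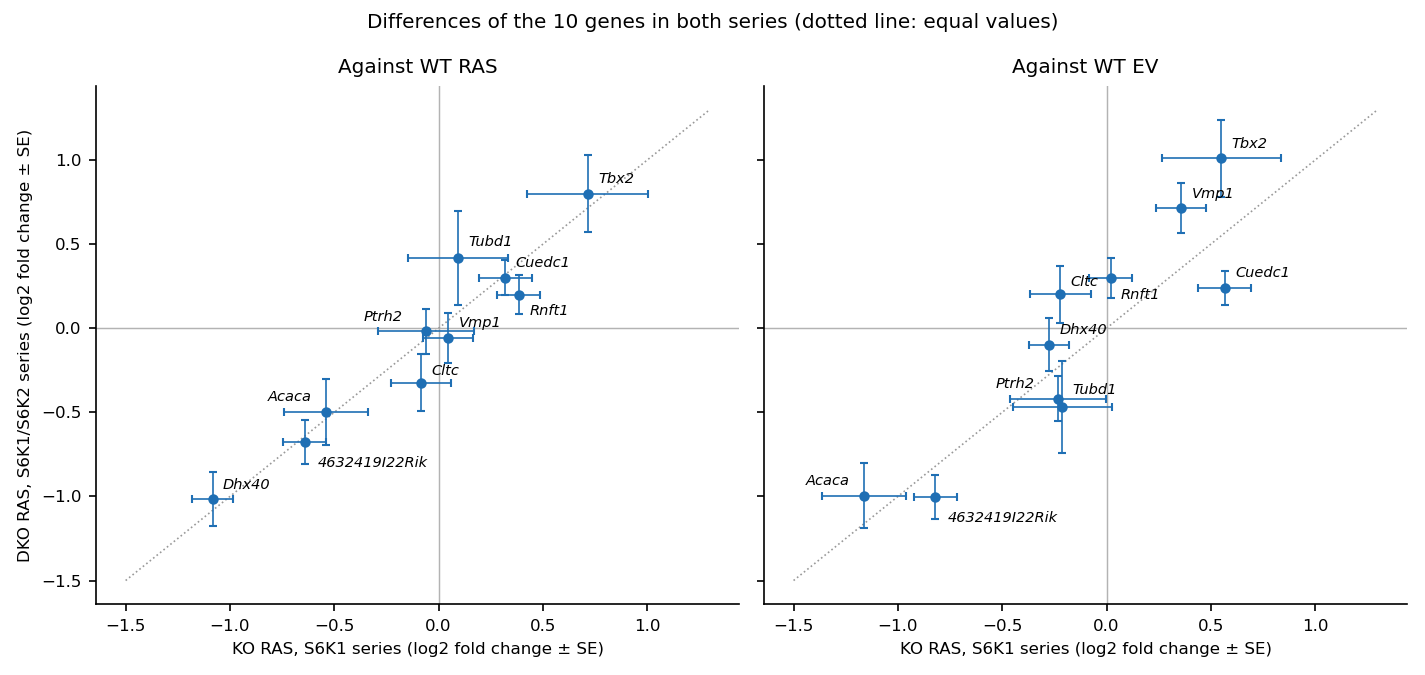
Differences of the 10 genes on the log2 scale with SE, KO RAS on the horizontal and DKO RAS on the vertical axis, against WT RAS (left) and WT EV (right); the dotted line marks equal values. Against WT RAS the 10 points run from -1.08 and -1.02 for Dhx40 to 0.71 and 0.80 for Tbx2, and against WT EV Dhx40 moves to -0.28 and -0.10.

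The size of the difference from WT RAS was then compared between the series. The DKO RAS difference minus the KO RAS difference ran from -0.21 ± 0.22 for Cltc to 0.35 ± 0.36 for Tubd1 on the log2 scale, with 0.10 ± 0.19 for Dhx40, -0.01 ± 0.16 for 4632419I22Rik and 0.07 ± 0.28 for Acaca. Rnft1, at -0.15 ± 0.15, was the one gene whose difference exceeded its SE, by a small margin, in series that share no library. The SEs of 0.15 to 0.36 on the log2 scale set what could be seen, and the series differ in their WT parents as well as in S6K2. The genes were also chosen on knockout differences in these data, so the choice itself may favour similar values in both series.

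Against WT EV, 7 of the 10 genes did not overlap in KO RAS (4 lower and 3 higher) and 8 of 10 in DKO RAS (4 lower and 4 higher). Over all genes tested, 17.0% were lower and 17.8% higher without overlap in KO RAS against WT EV, and 22% and 21.5% in DKO RAS. 4632419I22Rik, Acaca, Tbx2 and Cuedc1 did not overlap with WT RAS or WT EV and went the same way in both series, which 34 of 13550 genes (0.251%) did. These comparisons share the KO or DKO RAS libraries. Dhx40 and Rnft1, by contrast, overlapped WT EV in one series each. The counts of listed genes against WT EV are not read against the shares of all genes. The list was chosen on differences between knockout and wild-type libraries in these data.

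RAS against EV in WT cells was tested by edgeR's quasi-likelihood test with Benjamini-Hochberg adjustment over all genes. These tests share the WT RAS libraries with the comparisons above, so a high or low WT RAS library moves both in opposite directions. The listed genes were chosen on differences that use these WT libraries, so their p-values may be affected by that choice. In the S6K1 series 2 of the 10 genes passed an adjusted p of 0.05 (13.2% of all genes), and in the S6K1/S6K2 series 4 of 10 (26.3%). Dhx40 rose with RAS in both, 1.75-fold in the S6K1 series (log2 fold change 0.81 ± 0.10, edgeR adjusted p = 0.000985) and 1.89-fold in the S6K1/S6K2 series (0.92 ± 0.16, adjusted p = 0.00329), without overlap.

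The other calls held in one series each. Rnft1 fell by 0.36 ± 0.10 on the log2 scale in the S6K1 series (edgeR adjusted p = 0.0468) and differed by 0.10 ± 0.12 in the S6K1/S6K2 series (edgeR adjusted p = 0.563). In the S6K1/S6K2 series Vmp1 rose 1.71-fold (edgeR adjusted p = 0.00573), Cltc rose 1.44-fold (adjusted p = 0.0455) and Tubd1 fell by 0.88 ± 0.28 on the log2 scale (adjusted p = 0.0421). Vmp1 was at 229, 284 and 284 CPM for WT EV and 446, 470.2 and 444 CPM for WT RAS, and in the S6K1 series at 331, 252 and 272 CPM and 357, 345 and 359 CPM. All of the Vmp1 WT RAS libraries were thus above WT EV in both series, although the S6K1 series missed the threshold (0.31 ± 0.12, edgeR adjusted p = 0.129).

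The replicate numbers pair these libraries. With the number as a block, 4 of 10 passed in the S6K1 series (36.2% of all genes), with Acaca (-0.62, edgeR adjusted p = 0.0127) and Vmp1 (0.32, adjusted p = 0.0175) added. 4 of 10 in the S6K1/S6K2 series also passed with the block (28.7%), where Ptrh2 was added (-0.40, edgeR adjusted p = 0.0429) and Cltc was lost (adjusted p = 0.0682). With the block the edgeR adjusted p was 0.0045 for Rnft1 in the S6K1 series and 0.0459 for Tubd1 in the S6K1/S6K2 series. Without the block, the calls of Rnft1, Cltc and Tubd1 lay near the threshold and were each lost on leaving out single libraries of their series. For Rnft1 these were any WT EV or WT RAS library or KO RAS replicate 2 or 3 (edgeR adjusted p up to 0.173). For Cltc they were WT EV replicate 1 or 2, any WT RAS library or DKO RAS replicate 2 or 3 (edgeR adjusted p up to 0.155), and for Tubd1 WT EV replicate 2 or 3, any WT RAS library or DKO RAS replicate 2 or 3 (up to 0.138).

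The RAS effect itself was tested for a difference between the series. None of the 10 passed, nor did any of 14483 genes in edgeR (adjusted p of 0.277 to 0.868 for the 10), while 3 of the 10 (Cltc, Vmp1 and Rnft1) and 1819 genes in all had an unadjusted p under 0.05. A RAS effect on Cltc or Vmp1 that differs between the series was therefore not shown.

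In WT RAS libraries, CPM per kb of exon put Cltc highest of the 10 (107 and 128 in the S6K1 and S6K1/S6K2 series), followed by Vmp1 (91.5 and 117) and Dhx40 (28.9 and 32.6). Rnft1 (14.3 and 17.0), Cuedc1 (13.6 and 13.7) and 4632419I22Rik (11.4 and 11.7) were close together, and Rnft1 and Cuedc1 overlapped per kb in the S6K1 series, as did Cltc and Vmp1 in the S6K1/S6K2 series. Ptrh2 (6.95 and 6.91), Tubd1 (2.60 and 2.46), Acaca (2.06 and 2.41) and Tbx2 (1.27 and 2.15) were the lowest. Tbx2 overlapped both Acaca and Tubd1 per kb in the S6K1/S6K2 series. In KO and DKO RAS, Dhx40 stood at 13.6 and 16.1 CPM per kb, below Rnft1 (18.7 and 19.5) and Cuedc1 (16.9 in both).

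All tested genes near Rps6kb1, listed or not, were then taken by position. Within 1 Mb of Rps6kb1, 22 genes were tested in KO RAS against WT RAS and their median log2 fold change was -0.03, against 0.03 for all genes; 21 genes in DKO RAS against WT RAS had a median of 0.00. No overlap with WT RAS was seen for 36.4% of them in KO RAS (4 lower and 4 higher, against 8.02% of all genes) and for 23.8% in DKO RAS (3 lower and 2 higher, against 6.07%). Of these separated genes, 4 in each comparison were listed genes, which were chosen on these differences. Among the unlisted genes 4 of 14 (28.6%) did not overlap in KO RAS, 2 of them lower and 2 higher, and 1 of 13 (7.69%) in DKO RAS.

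Distance classes were set after these values were seen. Of the genes tested in both series, 4 of 21 within 1 Mb did not overlap in the same direction in both series (19.0%), 1 of 22 from 1 to 2 Mb (4.55%) and 10 of 44 from 2 to 5 Mb (22.7%). From 5 to 10 Mb it was 2 of 103 (1.94%), from 10 to 20 Mb 2 of 310 (0.645%), beyond 20 Mb on the chromosome 4 of 552 (0.725%), and on other chromosomes 59 of 11821 (0.499%). Of the other chromosomes with at least 100 tested genes, chromosome 3 had the highest share, 10 of 643 genes (1.56%). Without the 10 listed genes, 9 of 77 genes within 5 Mb (11.7%) remained, all of them from 2 to 5 Mb away. Against both WT RAS and WT EV, 12 of 87 genes within 5 Mb (13.8%) did not overlap in either series, and 16 of 11821 on other chromosomes (0.135%). Those 12 include 4 listed genes, which were chosen on such differences.

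**Figure D3:**
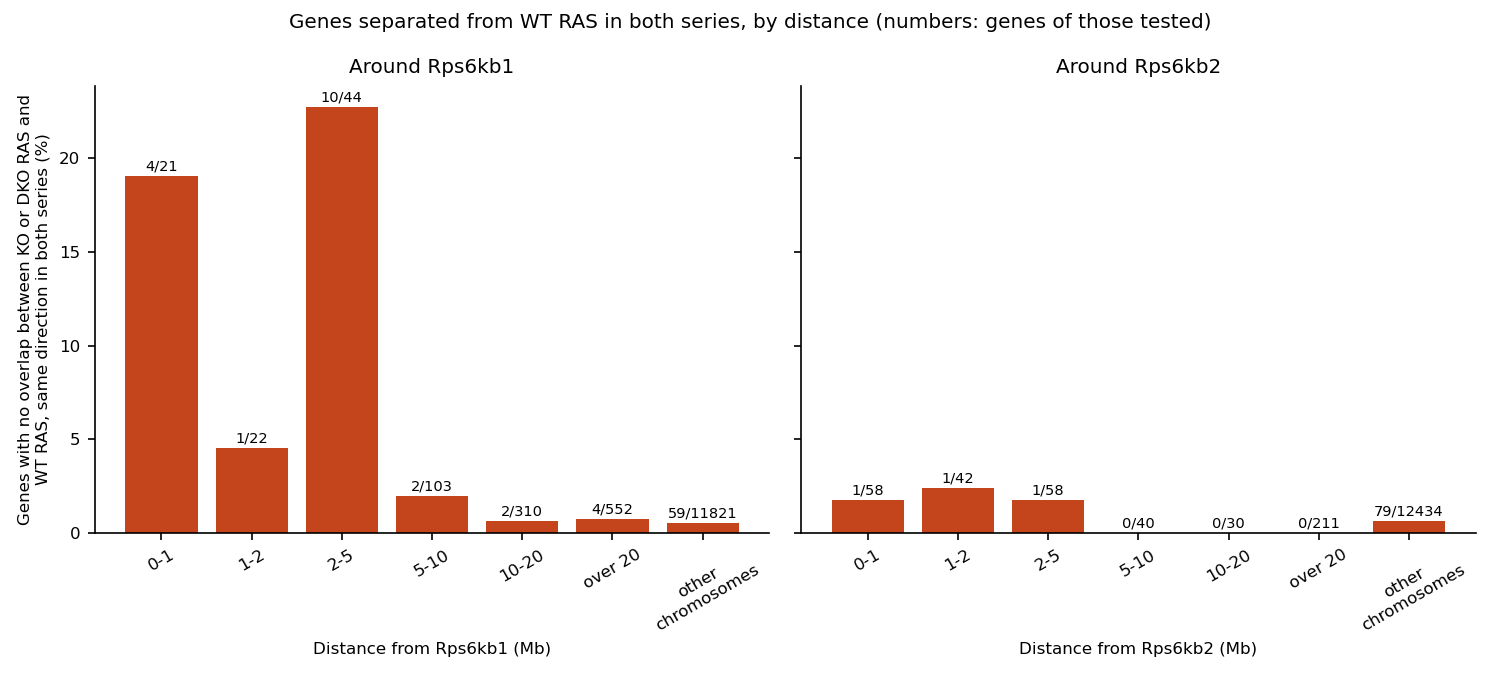
Share of tested genes, in percent, in which KO and DKO RAS did not overlap WT RAS and differed in the same direction in both series, by distance from Rps6kb1 (left) and Rps6kb2 (right); the numbers over the bars are genes of those tested, with the 10 listed genes included. The share was 19.0% within 1 Mb and 22.7% from 2 to 5 Mb of Rps6kb1. Without the listed genes, which were chosen on this separation, it was 0 of 13 and 9 of 43 genes (20.9%). Around Rps6kb2 it was at most 2.38% at any distance. That gene was targeted in the DKO only, so the 2 panels are not alike.

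The 9 unlisted genes, named here after their values were seen, lay on both sides. Towards lower coordinates, the Schlafen genes Slfn9, Slfn8, Slfn10-ps and Slfn2, a family of immune-regulated genes, lay 3.43 to 3.51 Mb away and the chemokine gene Ccl9 lay 2.92 Mb away, and all were lower. Towards higher coordinates, C030037D09Rik (a non-coding RNA), Akap1 (a mitochondrial anchor of protein kinase A), Scpep1 (a serine carboxypeptidase) and Gm15698 lay 2.22 to 2.47 Mb away, with 2 higher and 2 lower.

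Gm15698 (chromosome 11, 88825972 to 88828245, minus strand, protein coding in the annotation) had no read in any of the 6 KO and DKO RAS libraries and reads in all 12 WT libraries. It had 21, 21 and 79 reads for WT EV, 5, 3 and 24 for WT RAS and 0 in each KO RAS library. Read counts for the S6K1/S6K2 series were 11, 14 and 99 for WT EV, 6, 6 and 17 for WT RAS and 0 in each DKO RAS library. Taking 3 reads over a group as the floor, KO RAS was at least 10.8-fold lower than WT RAS and at least 38.0-fold lower than WT EV, and DKO RAS at least 10.6-fold and 39.7-fold lower. Replicate 3 held most of the reads in every WT group, and without it the limits fell to 4.13-fold against WT RAS and 18.4-fold against WT EV in KO RAS, and to 7.14-fold and 12.1-fold in DKO RAS. These limits cover counting error only.

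Scpep1, in the same stretch, was at 623, 582 and 491 CPM for WT RAS and 445, 398 and 399.8 CPM for KO RAS, and at 523, 418 and 435 CPM for WT RAS and 385, 391 and 377 CPM for DKO RAS. Akap1 went the other way, at 53.0, 64.1 and 81.2 CPM for WT RAS and 87.8, 92.8 and 89.2 CPM for KO RAS, and at 65.2, 81.5 and 80.7 CPM for WT RAS and 83.9, 97.2 and 91.4 CPM for DKO RAS. The margin in Akap1 was narrow in the S6K1/S6K2 series, between 81.5 and 83.9 CPM. C030037D09Rik was higher as well, with log2 fold changes of 0.52 ± 0.28 in KO RAS and 0.82 ± 0.26 in DKO RAS.

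Slfn2 differed from WT RAS by -2.69 ± 0.60 on the log2 scale in KO RAS and -2.69 ± 0.47 in DKO RAS, and Ccl9 by -2.54 ± 0.68 and -2.58 ± 1.02. Chemokine and Schlafen genes are expressed in macrophages too. The summed macrophage markers reached lower in the knockout libraries, and the mean of Lyz2 was lower there, while the summed levels overlapped, as given above. The part of macrophages in these 5 genes was not tested.

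**Figure D4:**
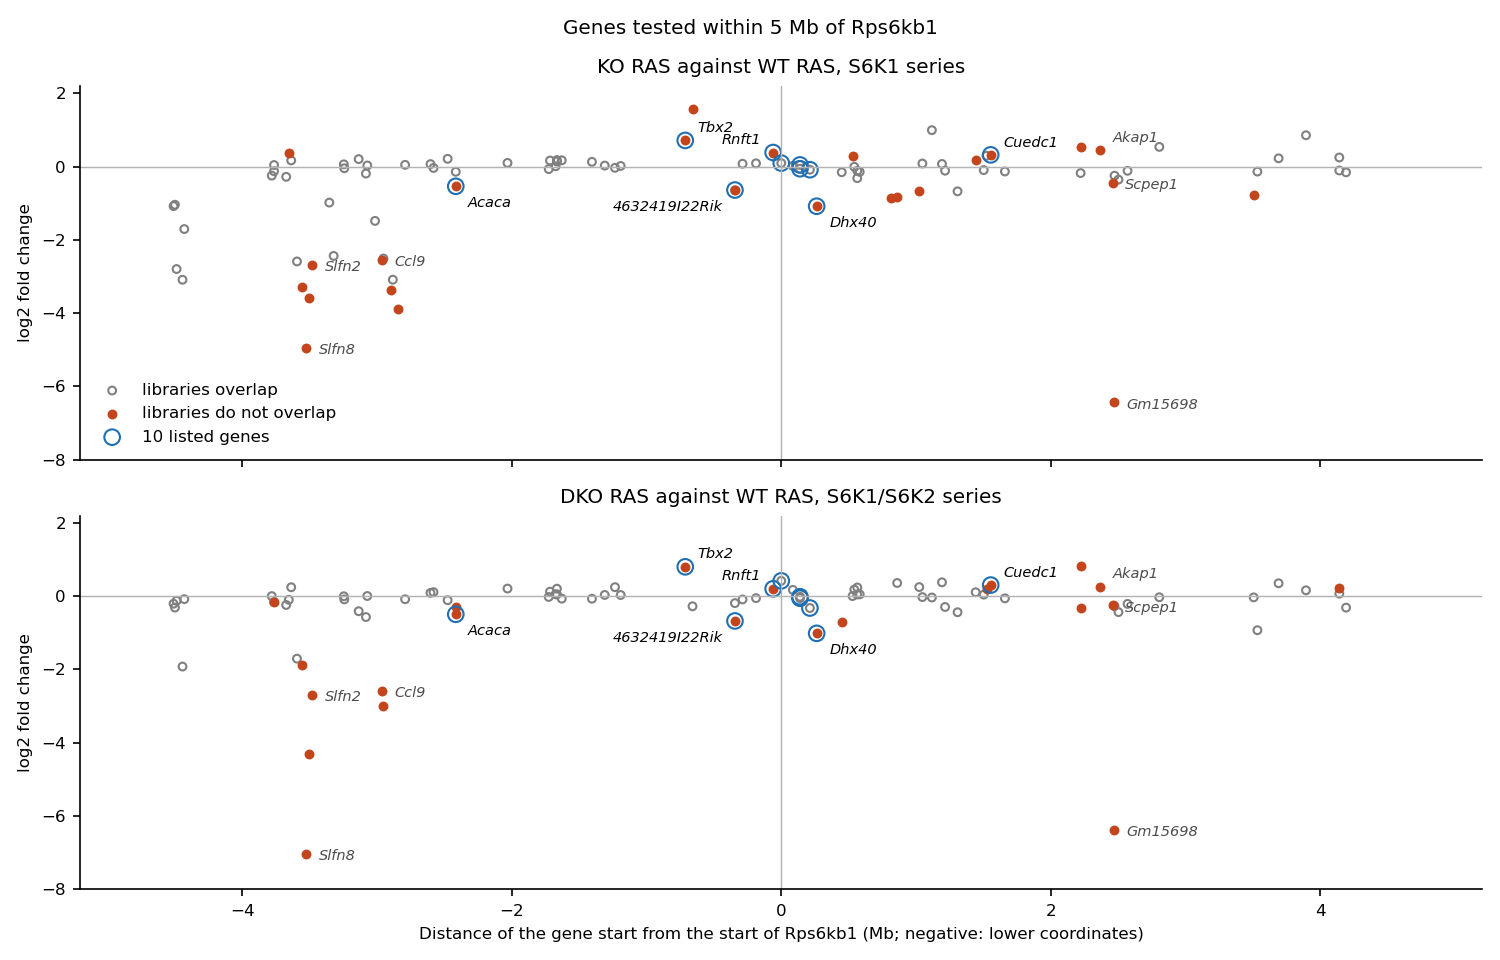
Log2 fold change of every tested gene within 5 Mb of Rps6kb1, by the distance between gene starts in Mb, in KO RAS (top) and DKO RAS (bottom) against WT RAS; filled points are genes whose libraries do not overlap and blue rings the 10 listed genes. The values of Gm15698 and Slfn8, which have 0 reads in some groups, depend on the fitting and are not bounds; many of the other genes lie near 0.

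Among other genes within 1 Mb with a mean of at least 100 reads, the highest and lowest differences were read by rule. Tbx4, the T-box gene beside Tbx2, was at 7.17, 6.15 and 4.42 CPM for WT RAS and 18.8, 19.0 and 15.0 CPM for KO RAS (log2 fold change 1.57 ± 0.33), but in the S6K1/S6K2 series at 22.3, 25.6 and 15.9 CPM for WT RAS and 16.1, 14.7 and 21.7 CPM for DKO RAS, with overlap (-0.28 ± 0.31). Ypel2 was lower in DKO RAS without overlap (-0.71 ± 0.26) and overlapped in KO RAS (-0.15 ± 0.43). Dhx40 was itself the lowest of all in both series, and Prr11 (-0.32 ± 0.16 in KO RAS) and Fam33a (0.24 ± 0.21 in DKO RAS) overlapped with WT RAS. None of the 13 unlisted genes within 1 Mb that were tested in both series was separated the same way in both.

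The second targeted gene gives a comparison in the same cells. Of the 58 genes tested in DKO RAS within 1 Mb of Rps6kb2 on chromosome 19, which was targeted in the DKO only, 1.72% did not overlap with WT RAS, against 6.07% of all genes. Tmem134, Coro1b, Carns1, Ppp1ca and Rad9, which lie close to it, overlapped with WT RAS in both series, with log2 differences in DKO RAS from -0.24 ± 0.36 for Carns1 to 0.15 ± 0.14 for Tmem134. Of 158 genes within 5 Mb of Rps6kb2 that were tested in both series, 3.80% did not overlap with WT RAS in DKO RAS. Within 5 Mb of Rps6kb1 it was 25.3% of 87 genes, including listed genes, which were chosen on such differences. Separation in the same direction in both series was seen for 3 of the 158 genes (1.90%) and 15 of the 87 (17.2%). These last shares are no contrast between the loci, because KO cells carry a targeted allele at Rps6kb1 alone. Of the 15 genes, 6 were listed genes chosen on this separation, and the unlisted genes gave 9 of 77 (11.7%).

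The genes whose levels ran most like those of Dhx40, by Pearson's r of log2 CPM centred on each series over the 18 libraries and among 9829 genes, were Pygl (0.74), Zfp53 (0.70), Ccl6 (0.69), Tor1aip2 (0.68) and Gnpda2 (0.67). Of the listed genes in this ranking, Cltc came first, ranked 63rd with 0.52, and 4632419I22Rik was 331st with 0.40. Rps6kb1 ranked 132nd with 0.47, whereas Rnft1, at -0.62, ranked 9801st. These libraries share their groups and cultures, so the values describe the 18 libraries. Apart from Ccl6, the 5 genes nearest to Dhx40 in pattern lie on other chromosomes.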

How the data were processed

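RNA was prepared with a stranded mRNA kit and sequenced as single-end reads. The authors deposited raw counts per gene, of 8319445 to 14402442 reads per library. Their published methods name TopHat and the mm9 build, and the submitters' processing notes name STAR 2.7.1a, mm10 and DESeq2 1.28.1, so the aligner and build are not settled here, and the counting of strands is not given in the sources used here. Genes were matched by identifier to the NCBIM37 annotation, which placed 32589 of 55401 identifiers holding 99.1% of counts.

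Each series of 9 libraries was fitted with edgeR 4.0.16 (R 4.3.3, limma 3.58.1; TMM scaling, filterByExpr with a minimum count of 10, quasi-likelihood test, two-sided, threshold 0.05), which left 14036 and 13881 genes. Differences between series came from a fit of all 18 libraries. The KO RAS against WT RAS test was checked on counts simulated for the S6K1 series. Those libraries were drawn without pairs, so the check does not cover the pairing described below. DESeq2 1.42.0, other scalings and filters, other sets of libraries, a replicate block and leaving out single libraries were alternatives. Replicates differed by more than counting noise (chi-square per degree of freedom of at least 8.62). Per the study's methods, cells came from embryos of several independent mothers, and KO cells of the S6K1 series were paired with WT littermates. Deviations of libraries with the same number correlated at 0.419 to 0.725 in every pair of the S6K1 series comparisons and at 0.291 to 0.370 in RAS against EV of the S6K1/S6K2 series, so the numbers, which come from the labels, pair those libraries. The SEs printed after ± come from the fits without the replicate block, so they include differences between the pairs. In KO RAS against WT RAS the block gave smaller SEs, such as 0.16 against 0.29 for Tbx2 and 0.08 against 0.10 for Dhx40.

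The members and lists were chosen with earlier results of these data known. Named by rule were the 10 genes, the targeted genes, the genes within 1 Mb of Rps6kb1 that passed the threshold or had the highest and lowest difference at a mean of at least 100 counts, up to 3 genes on each side of Rps6kb2 and the 5 genes most like Dhx40. Not every gene this rule names is reported here. Promoter windows were found for 7 of the 10 genes.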

Additional observations from a re-analysis of the deposited data

Results flagged for a closer look

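Rps6kb2 differed between the series in its response to loss, with a DKO RAS difference that was -3.11 ± 0.20 (SE) on the log2 scale relative to the KO RAS difference (edgeR adjusted p = 9.1e-07), and it is the gene targeted in the DKO and not in the KO.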

How the results depend on the processing

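The number of the 10 genes passing an adjusted p of 0.05 depended on the fit. In RAS against EV of the S6K1 series it was 2, against 1 with no filter or a minimum of 10 counts in every library, 1 with upper-quartile scaling or DESeq2 size factors, 1 with only the 6 compared libraries, 4 with the replicate block, and 1 to 3 on leaving out single libraries. The S6K1/S6K2 series had 4, against 2 with only the 6 compared libraries and 2 to 4 without single libraries. KO RAS against WT RAS had 1, against 4 with the block, 2 with DESeq2, 0 with the 6 compared libraries and 0 to 1 without single libraries, and KO RAS against WT EV had 3, against 6, 5 with DESeq2, and 2 to 3. DKO RAS against WT RAS had 0, against 1 with no filter, 2 with DESeq2, 2 with all 18 libraries and 0 to 0 without single libraries, and DKO RAS against WT EV had 5, with 4 to 5. Both comparisons between the series had 0, with 0 to 0.

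Over all genes, RAS against EV of the S6K1 series had 1859 calls, 5085 with the replicate block and 1043 to 1919 without single libraries, and the S6K1/S6K2 series 3646 and 2050 to 4199. KO RAS against WT RAS had 1, with 963 genes at an unadjusted p under 0.05, and 108 with no filter, 583 with the block, 63 with DESeq2, 0 with 6 libraries (edgeR, 844 at an unadjusted p under 0.05), 4 with all 18 libraries and 0 to 22 without single libraries. KO RAS against WT EV had 2542, 5766 with the block and 1325 to 2848. DKO RAS against WT RAS had 3, with 11 under no filter, 8 with the block, 10 with DESeq2, 7 with all 18 libraries and 1 to 3, and DKO RAS against WT EV had 3565, with 1999 to 4044. In the 2 comparisons of DKO RAS the numbers are shared without pairing, since 2 of the 3 numbers correlated best with their own. The difference of loss effects had 1, with 1 to 1, and that of RAS effects 0, with 204 under no filter, 58 with the block and 0 to 290. The block changed no other count by over 1.5 times.

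The median within 1 Mb of Rps6kb1 was 0.00 in DKO RAS, -0.0569 in a window of 0.5 Mb and -0.0668 to 0.0609 without single libraries (the lowest without DKO RAS replicate 3, the highest without WT RAS replicate 1), and -0.03 in KO RAS, with -0.08 to 0.03. Of 340 values of the 10 genes for RAS against EV under alternatives, 32 lost and 10 gained the call and 3 changed sign. Of 680 values in the loss comparisons, 23 lost and 16 gained a call and 12 changed sign, and of 460 values of differences between the series 0 changed call and 25 changed sign. The 40 sign changes were all in values that passed in neither fit, with a log2 value of at most 0.16 on the reported side. The RAS calls of Dhx40 in both series and of Vmp1 in the S6K1/S6K2 series were kept throughout. Causes of these changes were not tested. The limits for Gm15698 without single WT libraries were added after seeing the data.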

Other observations

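Chemokine and Schlafen genes lie on the same side of Rps6kb1, 2.83 to 4.46 Mb away, and were looked at after their values were seen. Of the Ccl genes within 5 Mb, 10 of 10 tested were below WT RAS in KO RAS, with a median log2 fold change of -2.52, and 7 of 7 in DKO RAS, with a median of -0.31. The Slfn genes there were below WT RAS in 6 of 6 tested in KO RAS (median -2.99) and in 5 of 5 in DKO RAS (median -2.69). In edgeR 0 of the 10 Ccl and 0 of the 6 Slfn genes passed an adjusted p of 0.05 in KO RAS, with 8 and 5 at an unadjusted p under 0.05 and 2 and 4 passing in DESeq2. In DKO RAS edgeR passed 0 of 7 and 0 of 5, with 2 and 4 at an unadjusted p under 0.05 and 0 and 3 passing in DESeq2. Over all genes tested, 43.4% lay below WT RAS in the KO comparison and 50.1% in the DKO one. The part of macrophages, which express both families, was not tested.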
